A study of Mus musculus with 6 samples.

Results

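The genes described here encode serpins and other protease inhibitors, and their RNA was compared between cells given siRNA against Mnt (siMnt) and cells given a non-targeting siRNA (siNTC). Members are the genes of the deposited table whose symbol starts with Serpin, Timp and a number, Spint, Wfdc, Tfpi or Spink, or is Slpi, Cst3, Cst6, Csta1, Cstb, Reck or A2m, and whose normalised read count averaged 10 or more over the 6 libraries. Of 56 rows with such symbols 37 met this level, among 12568 tested genes and 14526 genes in all. They are 8 Serpina genes, 13 Serpinb genes, 5 serpins of other clades, 3 Timp genes, 4 genes of the whey acidic protein (WAP) family, 2 Kunitz inhibitors and 2 cystatins.

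All 6 libraries came from NMuMG, an established mouse mammary epithelial line that turns mesenchymal under TGF-beta, and all were taken on day 4 of TGF-beta, controls included. TGF-beta and siRNA were given together 16 hours after plating and renewed on day 2. There were 3 siNTC and 3 siMnt libraries, named here siNTC 1 to 3 and siMnt 1 to 3 after their titles, and libraries made without TGF-beta are not analysed here. All rest on this single line, and no label states that replicates were grown apart, so the p-values reflect the spread of these samples alone, which may be technical.

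Serpins trap serine proteases, and a few trap cysteine proteases, by a reactive centre loop that the protease cuts, after which the serpin folds and holds it. Clade A serpins are mostly secreted by liver, clade B serpins lack a classical signal peptide and act largely inside cells, and some members of either kind no longer inhibit any protease. Timp proteins block matrix metalloproteinases, Kunitz and WAP domain proteins block trypsin-like or elastase-like serine proteases, and cystatins block cysteine cathepsins.

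Several members lie in tandem clusters of close copies, and the stretch that codes for the reactive loop shows how far these copies differ. The 5 alpha-1 antitrypsin genes of the mouse, Serpina1a to Serpina1e on chromosome 12, are set out below from the codon of the hinge glutamate, over 75 bases of the longest reading frame of each gene's longest GENCODE M21 transcript, 5′ to 3′. Capitals mark the 18 positions at which the 5 genes do not all have the same base.
Serpina1a: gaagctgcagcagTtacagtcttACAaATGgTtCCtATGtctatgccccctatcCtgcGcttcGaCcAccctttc
Serpina1b: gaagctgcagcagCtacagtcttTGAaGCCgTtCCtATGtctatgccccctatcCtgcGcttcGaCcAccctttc
Serpina1c: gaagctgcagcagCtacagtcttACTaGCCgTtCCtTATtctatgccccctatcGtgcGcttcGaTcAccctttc
Serpina1d: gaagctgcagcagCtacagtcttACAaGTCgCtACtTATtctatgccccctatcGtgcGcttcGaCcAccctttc
Serpina1e: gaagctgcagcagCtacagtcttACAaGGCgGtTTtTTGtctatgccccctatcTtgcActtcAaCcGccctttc
The other 57 positions are shared by all 5. Serpina1c and Serpina1d differ at 5 of these 75 bases, the fewest of any pair, and Serpina1e differs from each of the others at 10 to 12.

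The same stretch is shown for the 4 scarce Serpinb9 copies on chromosome 13, with capitals at the 32 positions that are not shared by all 4.
Serpinb9c: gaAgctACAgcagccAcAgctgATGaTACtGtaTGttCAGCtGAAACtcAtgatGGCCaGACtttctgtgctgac
Serpinb9e: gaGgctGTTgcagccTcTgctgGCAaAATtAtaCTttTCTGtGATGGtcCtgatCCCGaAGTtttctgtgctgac
Serpinb9f: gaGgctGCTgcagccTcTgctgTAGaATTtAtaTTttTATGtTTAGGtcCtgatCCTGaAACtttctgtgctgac
Serpinb9g: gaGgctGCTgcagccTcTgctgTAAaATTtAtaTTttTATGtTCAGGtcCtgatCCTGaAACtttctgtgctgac
Serpinb9f and Serpinb9g differ at 2 of 75 bases and Serpinb9c stands farthest off, with 25 to 28 differences from the other 3.

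No source used here gives how reads that match several genes were counted, so the share of each member's longest transcript that occurs elsewhere was measured in windows of 50 bases, on either strand. For 15 members no window occurred in a transcript of another gene. For 11 members over 10% of windows did, and the values of these genes are uncertain. They include all 5 Serpina1 genes, with 67.4% of windows for Serpina1a, 35.8% for Serpina1b, 79.3% for Serpina1c, 50.9% for Serpina1d and 35.6% for Serpina1e. Serpinb9f (78.7%), Serpinb9g (54.8%), Serpinb9e (28.4%), Serpinb9c (18.9%) and Serpinb6c (10.4%) also belong there, as does Timp3 (36.3%), most of whose shared windows lie in Syn3, the gene that overlaps it. Serpinb9 and Serpinb9b, at 0.38% and 5.62%, are largely free of this.

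The libraries held 22323050 to 42193292 reads. Mnt stood at 1316, 896 and 1596 normalised read counts in siNTC 1 to 3 and at 613, 557 and 749 in siMnt 1 to 3, or 50.4% of the control mean (log2 fold change -0.96 ± 0.22 SE, adjusted p = 0.0546, limma; 0.00442 with replicate numbers as blocks). Library siNTC 3 stood apart: on principal component 1 (60.8% of the variance) it lay at -0.808, against -43.0 and -52.3 for siNTC 1 and 2 and 29.4 to 35.5 for the siMnt libraries. The epithelial keratins Krt8 and Krt18 were abundant in all 6 libraries, with lowest values of 30725 and 43433, while Epcam was not analysed here. Of the 12 fixed epithelial markers 9 were tested and 1 rose by limma, Ehf. Their summed level, most of it from Krt8, Krt18 and Krt19, was 115974 to 142994 in siNTC and 130095 to 141521 in siMnt. With blocks 2 passed higher and 1 lower, where 9.33% and 6.56% of all tested genes did. Cldn4 was at 29.6% of the control mean (adjusted p = 0.198, limma; 0.0254 with blocks) and Cdh1 at 140% (0.179, limma; 0.0474 with blocks). In bulk RNA, fewer cells of a kind and less RNA per cell cannot be told apart.

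By limma on log2(value + 1), with Benjamini-Hochberg adjustment and a threshold of 0.05, 6 of the 37 members passed, against 3.93% of all tested genes. The 5 that rose in siMnt were Serpina7, Serpinb6c, Serpinh1, Serping1 and Wfdc3 (2.56% of all tested genes rose), and the 1 that fell was Timp2 (1.37% fell). Of these 6, 4 (Serpinb6c, Serpinh1, Serping1 and Wfdc3) had an siNTC mean under 10 and reached the minimum level through the siMnt libraries alone, so they had to differ, and no share is read from them. Among the 28 members with both group means of at least 10, 2 passed (7.14%), against 3.62% of the tested genes of that kind. The median log2 fold change, siMnt minus siNTC, was 0.21 over the 37 members and -0.01 over all tested genes, and the members ranged from -2.37 to 3.65. In 9 of the 37 (329 of the 12568 tested genes) 1 group mean was under 10, so the filter set their direction, 6 upward and 3 downward. Both ends of the range, Serpinb9e and Serpinb6c, are among these 9, and no shift is read from the median.

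**Figure D1:**
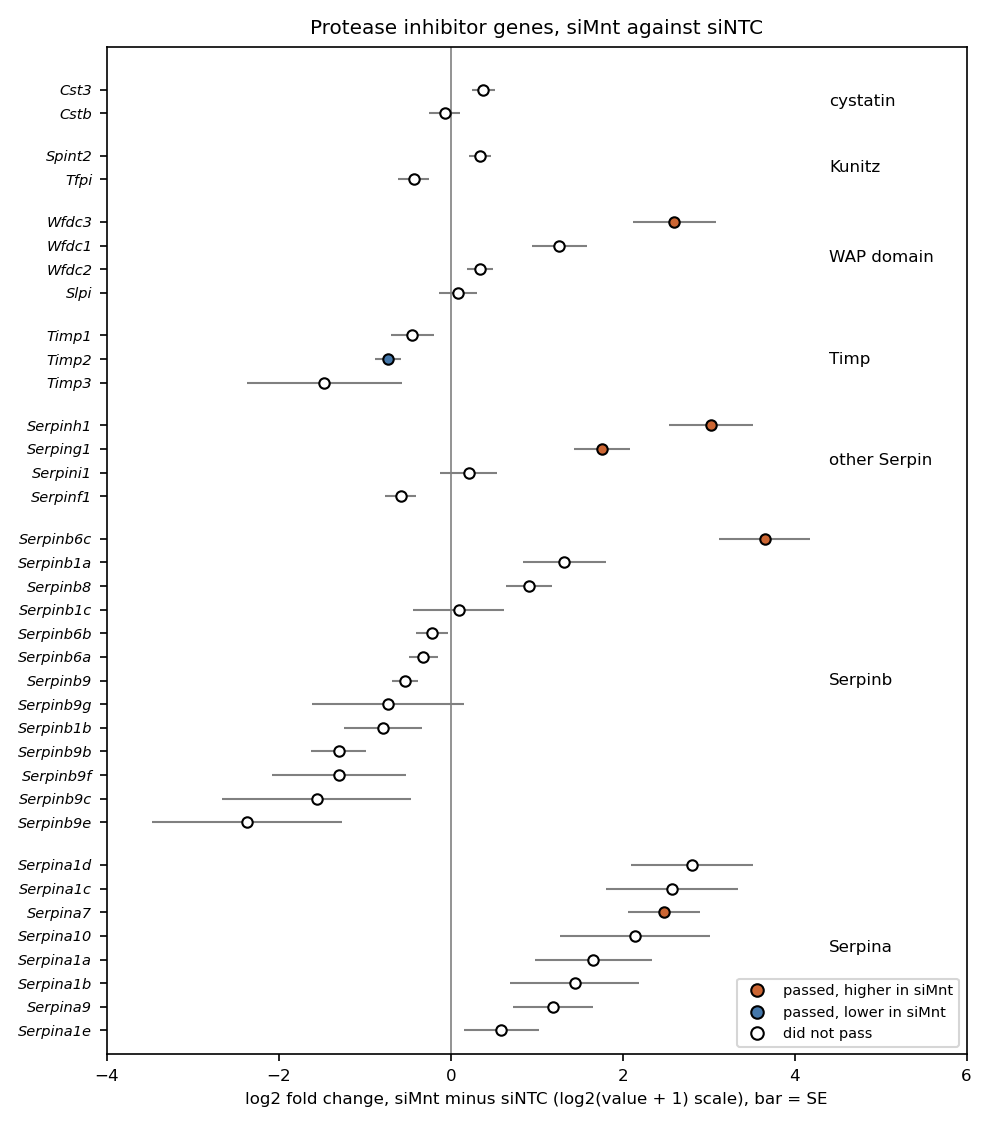
Log2 fold change (siMnt minus siNTC, from log2 of value + 1) of 36 of the 37 members by family, with points at the estimate, bars of 1 standard error and filled points for the 6 that passed. All 8 Serpina genes lie above 0, from 0.59 to 2.81, and all 6 Serpinb9 genes below 0, from -2.37 to -0.53. Of these, Serpina9 reached the minimum level through siMnt alone, and Serpinb9c, Serpinb9e and Serpinb9f through siNTC alone.

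The count turned on single libraries. Without siNTC 3 there were 25 members that passed, 14 higher and 11 lower, where 16.0% of all tested genes passed (9.51% higher, 6.50% lower). With replicate numbers as blocks 13 passed, 9 higher and 4 lower, against 15.9% of all tested genes (9.33% higher, 6.56% lower). The count tests called 6 members by edgeR, 5 higher and 1 lower (3.54% of all tested genes, 2.29% higher and 1.25% lower), and 11 by DESeq2, 6 higher and 5 lower (11.6%, 6.71% higher and 4.89% lower). Leaving out siNTC 1, siMnt 1 or siMnt 2 left 0 by limma and 0 by edgeR, with 13 or 14 members at an unadjusted p under 0.05 by either tool. Of all 12568 tested genes 1816 to 2193 by limma and 1763 to 2178 by edgeR had such a p in these settings. With all libraries 2938 had it by limma, and later counts of this kind are to be read beside that number. Without siNTC 2 Serpinb6c and Timp2 passed, and without siMnt 3 Serpinb6c alone did. In 27 of 37 members siNTC 3 was nearer on the log2 scale to the siMnt mean than to the mean of siNTC 1 and 2, as it was in 60.3% of all tested genes. The spread among siNTC libraries was the larger in 33 of 37 members (78.9% of all tested genes), with a median SD of 0.71 on the log2 scale against 0.21 among siMnt libraries. Over all tested genes these medians were 0.26 and 0.13.

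**Figure D2:**
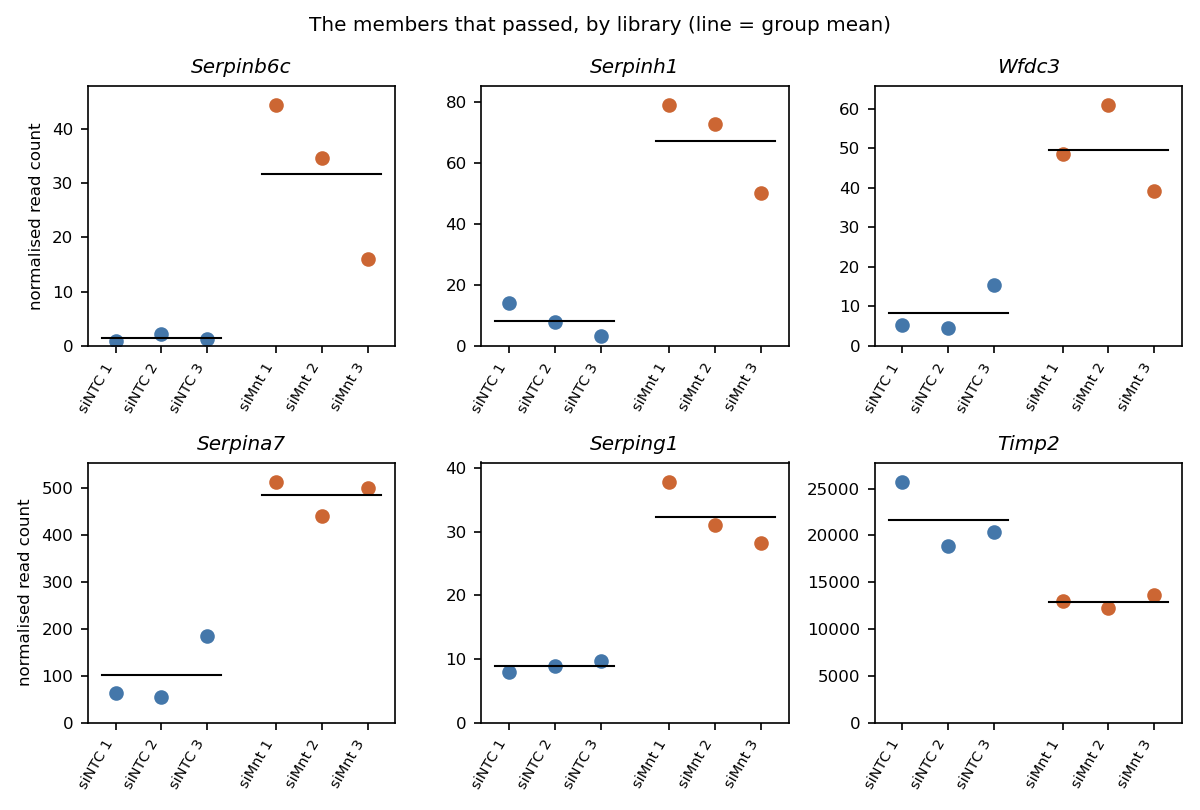
Normalised read count of the 6 members that passed, with 1 point per library and a line at each group mean. In each panel the groups do not overlap, as in 31.5% of all tested genes, and the panels were chosen by a test on these same values. The siNTC values of Serpinb6c, Serping1, Serpinh1 and Wfdc3 are at most 15.5, and these 4 reached the minimum level through siMnt alone.

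Among clade A serpins the 8 members all had positive log2 fold changes and 1 passed, Serpina7. It encodes thyroxine-binding globulin, a hormone carrier that inhibits no protease. Its values were 63.8, 54.3 and 184 in siNTC 1 to 3 and 514, 440 and 501 in siMnt 1 to 3. The siMnt libraries were alike and each lay above every control, the highest control being siNTC 3. Serpina7 rose 4.82-fold in mean (log2 fold change 2.48 ± 0.42, adjusted p = 0.0268, limma), with a log2 difference of 2.99 within replicate number 1 and 1.44 within number 3. None of its windows occurs in another gene.

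The alpha-1 antitrypsin genes Serpina1a to Serpina1e, are copies of the gene whose human product blocks neutrophil elastase. Summed over the 5 genes, the level was 512, 1578 and 4945 in siNTC 1 to 3 and 4448, 4920 and 5560 in siMnt 1 to 3. Control library siNTC 3 thus lay within the siMnt range, and the other controls below it. By limma 0 of the 5 passed, with 3 at an unadjusted p under 0.05, and edgeR and DESeq2 also called 0. Serpina1a, Serpina1c and Serpina1d passed with replicate numbers as blocks, and these and Serpina1b passed without siNTC 3.

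Serpina1d had the highest log2 fold change of the clade, and its values were 14.8, 28.8 and 155 in siNTC and 284, 295 and 301 in siMnt. The groups did not overlap, and siNTC 3 was the control nearest to siMnt (log2 fold change 2.81 ± 0.71, adjusted p = 0.0679, limma; 0.0105 with blocks). Serpina1c had the same shape, at 44.5, 110 and 586 against 801, 850 and 914 (2.57 ± 0.77, adjusted p = 0.0971, limma; 0.0143 with blocks). Serpina1a, the most abundant of the 5, was at 228, 558 and 2191 in siNTC and 1897, 2012 and 2303 in siMnt, and its groups overlapped (1.66 ± 0.68, adjusted p = 0.192, limma; 0.0343 with blocks). Within replicate number 3 the log2 difference of these genes was 0.95, 0.64 and 0.07, against 4.17, 4.14 and 3.05 within number 1. Serpina1b (adjusted p = 0.288) and Serpina1e (0.459) had log2 fold changes of 1.44 and 0.59.

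The make-up of the Serpina1 sum also differed by library. Serpina1c and Serpina1d gave 16.4% to 18.0% and 5.42% to 6.39% of it in siMnt, and 6.95% to 11.9% and 1.82% to 3.14% in siNTC. Serpina1e gave 16.0% and 14.8% in siNTC 1 and 2, and 4.84% to 6.35% in siNTC 3 and the siMnt libraries. These shares rest on the authors' assignment of reads between near-identical copies.

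**Figure D3:**
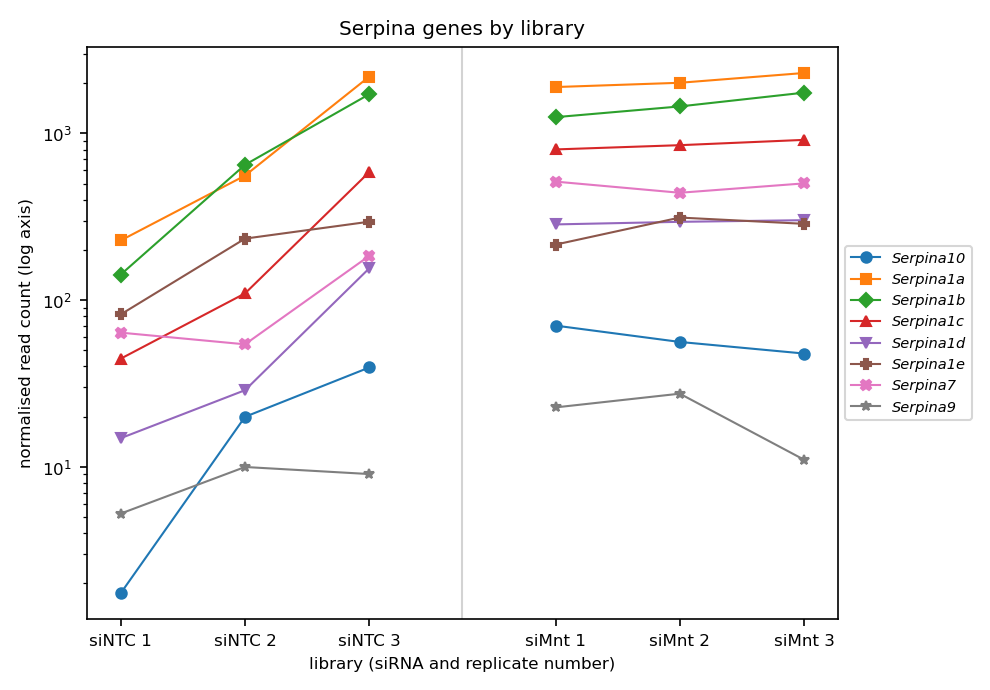
Normalised read count (log axis) of the 8 Serpina genes in each library, with lines joining the values of a gene within a group only to guide the eye. The Serpina1 genes are lowest in siNTC 1, and Serpina1a and Serpina1b in siNTC 3 reach the siMnt values, at 2191 and 1718.

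The last 2 clade A members were scarce. Serpina10, an inhibitor of coagulation factor Xa that acts with protein Z, was at 1.75, 19.9 and 39.4 in siNTC and 70.3, 56.1 and 47.8 in siMnt (adjusted p = 0.191, limma; 0.035 without siNTC 3). Serpina9, known from germinal centre B cells, was at 5.24, 9.97 and 9.04 and at 22.7, 27.4 and 11.0 (adjusted p = 0.18). It reached the minimum level through siMnt alone and so had to differ. Of the 8 fixed hepatocyte markers 4 were tested, and 1 rose by limma, the fibrinogen chain Fgb, at 51.5, 176 and 648 in siNTC and 2106, 1894 and 1779 in siMnt (log2 fold change 3.40 ± 0.75, adjusted p = 0.0487). The log2 fold change was 2.11 for Apob (adjusted p = 0.061, limma), 2.05 for Trf (0.0755) and 0.61 for Tat (0.498), whose groups overlapped. The summed level of the 6 listed markers, most of it from Apob, was 1313 to 5739 in siNTC and 9177 to 13279 in siMnt. Apoa1 and Ttr were at most 20.8 and 5.97, and Alb and Ahsg were not analysed here. Like the clade A genes the tested markers had positive log2 fold changes, and their part in the result was not tested.

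Promoter windows of RefSeq (GRCm38.p6, 250 bases before to 50 after each gene's start) were at hand for 30 of the 37 members. The AP-1 motif TGANTCA, sought on both strands, lies in the windows of Serpina1a, Serpina1b, Serpina1c, Serpina1d and Serpinb8, and in 6.78% of the tested genes with a window and 7.81% of all windows. The letters are not in the window of Serpina1e. That window starts past the stretch where the motif lies in Serpina1a, so the matching place was not searched. The Serpina1 genes are close copies, so their matches are not separate occurrences, and any link to their levels was not tested. The windows of Serpina1a (chr12:103863570-103863869, minus strand) and Serpina1d (chr12:103773584-103773883, minus strand) are shown with the motif in capitals.
Serpina1a: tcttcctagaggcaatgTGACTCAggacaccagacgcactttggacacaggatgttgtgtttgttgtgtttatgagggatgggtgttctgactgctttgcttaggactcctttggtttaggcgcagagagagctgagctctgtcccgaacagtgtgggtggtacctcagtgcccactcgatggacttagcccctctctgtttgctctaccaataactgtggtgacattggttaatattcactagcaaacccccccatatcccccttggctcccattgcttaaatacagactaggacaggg
Serpina1d: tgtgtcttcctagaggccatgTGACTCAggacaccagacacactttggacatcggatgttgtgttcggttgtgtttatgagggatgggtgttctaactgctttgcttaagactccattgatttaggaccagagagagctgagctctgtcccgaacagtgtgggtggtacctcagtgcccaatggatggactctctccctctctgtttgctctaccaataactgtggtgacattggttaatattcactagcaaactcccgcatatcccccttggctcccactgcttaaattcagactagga
The motif starts 233 and 229 bases before the annotated start of each.

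Mnt and its partner Max are known to bind the E-box CACGTG, a palindrome that does not overlap the AP-1 letters. It lies in the windows of 2 of the 30 members, Slpi and Tfpi, and in 11.6% of the tested genes with a window and 7.15% of all windows. Neither gene passed. The windows of Slpi (chr2:164356458-164356757, minus strand) and Tfpi (chr2:84476710-84477009, minus strand) are shown with the E-box in capitals.
Slpi: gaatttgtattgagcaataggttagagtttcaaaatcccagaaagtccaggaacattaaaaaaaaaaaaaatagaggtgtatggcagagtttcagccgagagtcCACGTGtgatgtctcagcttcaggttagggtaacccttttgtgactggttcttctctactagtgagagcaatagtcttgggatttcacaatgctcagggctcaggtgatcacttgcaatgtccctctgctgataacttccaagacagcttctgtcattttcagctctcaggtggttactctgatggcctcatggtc
Tfpi: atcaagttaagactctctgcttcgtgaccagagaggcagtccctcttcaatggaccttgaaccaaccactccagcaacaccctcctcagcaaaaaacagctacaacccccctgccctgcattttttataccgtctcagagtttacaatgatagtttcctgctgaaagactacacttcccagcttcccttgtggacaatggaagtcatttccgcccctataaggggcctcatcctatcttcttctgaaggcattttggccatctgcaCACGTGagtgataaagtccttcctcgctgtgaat
None of the windows of Serpina7, Serpinb6c, Serpinh1, Wfdc3 and Timp2 holds these letters, and Serping1 had no window. A match or its absence in such a window says nothing about binding.

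Clade B serpins differed by gene. Of 13 members 1 rose, Serpinb6c, 4 had positive and 9 negative log2 fold changes, and the median was -0.53. The minimum level set the direction of Serpinb6c and Serpinb1a upward and of Serpinb9c, Serpinb9e and Serpinb9f downward. These counts and the median are therefore partly fixed by the filter. Serpinb6c is a close copy of Serpinb6b, and no role is given for it here. It was at 0.87, 2.22 and 1.29 normalised read counts in siNTC, which are 1, 2 and 2 reads, and at 44.3, 34.6 and 15.9 in siMnt. Every siMnt library lay above every control, in all from 5 reads to 83. Serpinb6c reached the minimum level through siMnt alone and so had to differ, and the ratio and interval given next carry this selection. Scaled by library size the ratio was 23.1, with an exact Clopper-Pearson 95% interval of 9.53 to 73.1 that covers counting error only (log2 fold change 3.65 ± 0.53, adjusted p = 0.02, limma). Serpinb6c was called without siNTC 2 and without siMnt 3 as well. It was not called without siNTC 1, siMnt 1 or siMnt 2 (adjusted p = 0.0887, 0.138 and 0.123, limma), and its fold depends on the pseudocount.

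Serpinb6a and Serpinb6b were far more abundant and did not pass. Serpinb6a, whose human counterpart blocks cathepsin G and trypsin-like proteases, was at 8402, 11315 and 7269 in siNTC and 6961, 7183 and 7118 in siMnt (log2 fold change -0.32 ± 0.17, adjusted p = 0.291, limma). All siMnt values lay just below the lowest control. Serpinb6b was at 3963, 6350 and 4077 and at 3963, 4399 and 3741 (-0.22 ± 0.19, adjusted p = 0.526).

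The Serpinb9 copies all had negative log2 fold changes. For Serpinb9c, Serpinb9e and Serpinb9f, with siMnt means of 7.09, 7.82 and 6.11, this direction was set by the filter. These genes reached the minimum level through siNTC alone. Serpinb9, an inhibitor of the cytotoxic protease granzyme B, was at 4640, 6527 and 4879 in siNTC and 3587, 3631 and 3779 in siMnt. The groups did not overlap, and siNTC 2 was highest (log2 fold change -0.53 ± 0.15, adjusted p = 0.0819, limma; 0.0264 with blocks). Serpinb9b, similar in level, was at 5602, 9611 and 3577 in siNTC and 2213, 2724 and 2127 in siMnt, again without overlap (-1.30 ± 0.32, adjusted p = 0.0621, limma; 0.00459 with blocks). Both passed by DESeq2, with adjusted p = 0.0201 and 0.000356.

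The scarce copies Serpinb9c, Serpinb9e, Serpinb9f and Serpinb9g were each highest in siNTC 2. Serpinb9e was at 72.5, 202 and 5.17 in siNTC and 6.49, 7.16 and 9.80 in siMnt, so that siNTC 3 was the lowest of all libraries (log2 fold change -2.37 ± 1.10, adjusted p = 0.241, limma; 0.00223 without siNTC 3). The 4 copies were between 52.1 and 202 in siNTC 2, and in siNTC 3 between 2.58 and 7.11. Serpinb9c, Serpinb9e and Serpinb9f passed without siNTC 3 and Serpinb9g did not (adjusted p = 0.166), and its sign turned without siNTC 2. For the 6 Serpinb9 genes 0 passed by limma and by edgeR, and 2 had an unadjusted p under 0.05. DESeq2 called 3 of them, where it called 11.6% of all tested genes. Summed, the 6 Serpinb9 genes were at 10379, 16579 and 8475 in siNTC and 5829, 6415 and 5935 in siMnt.

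**Figure D4:**
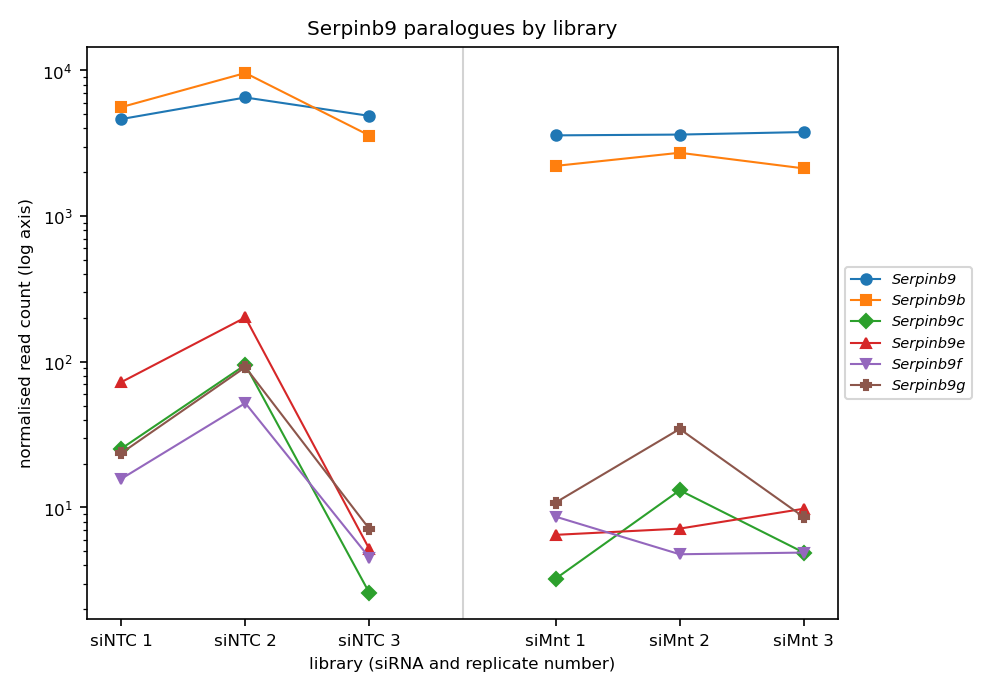
Normalised read count (log axis) of the 6 Serpinb9 copies in each library, with lines joining the values of a gene within a group only to guide the eye. The 4 scarce Serpinb9 copies drop below 10 in siNTC 3.

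Of the other clade B genes, Serpinb8, a furin inhibitor in human, was at 54.2, 47.6 and 81.4 in siNTC and 105, 140 and 96.8 in siMnt (log2 fold change 0.91 ± 0.27, adjusted p = 0.0998, limma; 0.0227 without siNTC 3). Serpinb1a, which blocks neutrophil elastase, had a log2 fold change of 1.32 (adjusted p = 0.155) and Serpinb1b one of -0.79 (0.326). Of these, Serpinb1a reached the minimum level through siMnt alone and so had to differ. Serpinb1c was at 0.09 (0.943), and its sign turned without siNTC 3. In order along chromosome 13 the members were Serpinb1a, Serpinb1c, Serpinb6b, Serpinb9, Serpinb9b, Serpinb1b, Serpinb9c, Serpinb9e, Serpinb9f, Serpinb9g, Serpinb6c and Serpinb6a, by RefSeq on GRCm38.p6. Serpinb6c, which rose, thus stood between genes with negative log2 fold changes.

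In the other serpin clades 2 of 5 members rose, Serpinh1 and Serping1 (2.56% of all tested genes rose). Both reached the minimum level through siMnt alone and so had to differ, and no share is read from this count. Serpinh1 encodes the collagen chaperone Hsp47, which is no protease inhibitor. It was at 14.0, 7.75 and 3.23 in siNTC and 78.9, 72.8 and 50.2 in siMnt, with siNTC 3 the lowest of all (log2 fold change 3.03 ± 0.49, adjusted p = 0.0247, limma). Its level was low for its length, 16.6 normalised reads per kb of transcript, place 26 of 37. Serping1, the inhibitor of complement C1 and of plasma kallikrein, was at 7.86, 8.86 and 9.69 and at 37.8, 31.0 and 28.2 (1.76 ± 0.33, adjusted p = 0.0343). The controls were close together and siNTC 3 lay with them.

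Of the members that did not pass, Serpinf1, pigment epithelium-derived factor, a secreted serpin that inhibits no protease, was at 294, 335 and 238 in siNTC and 203, 174 and 197 in siMnt, with no overlap (log2 fold change -0.58 ± 0.18, adjusted p = 0.11, limma). Serpini1, neuroserpin, was at 36.7, 46.5 and 30.4 and at 48.7, 56.1 and 29.4 (adjusted p = 0.754).

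Timp2 was the only member that fell by limma with all libraries. It encodes a secreted inhibitor of matrix metalloproteinases that also helps the membrane protease Mmp14 to activate Mmp2. It was at 25730, 18826 and 20362 in siNTC and at 13002, 12214 and 13576 in siMnt. Each siMnt library lay well below each control, and siNTC 3 lay with the controls. Timp2 fell to 59.8% of the control mean (log2 fold change -0.73 ± 0.15, adjusted p = 0.0425, limma), and each replicate number gave a negative difference, from -0.98 to -0.58 on the log2 scale. Without the variance trend, and without siNTC 1, siMnt 1, siMnt 2 or siMnt 3, it did not pass.

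Timp1 and Timp3 were highest in siNTC 1 and siNTC 2. Timp1 was at 974, 1272 and 616 in siNTC and 716, 694 and 598 in siMnt (log2 fold change -0.45 ± 0.25, adjusted p = 0.311, limma). Timp3, which binds to matrix and also blocks Adam17, was scarce, at 62.0, 76.4 and 5.17 and at 15.1, 9.55 and 7.35 (-1.47 ± 0.90, adjusted p = 0.364). Both overlapped between groups through siNTC 3, and both passed without it (adjusted p = 0.0243 and 0.00447). Reck, a membrane-anchored metalloproteinase inhibitor, was below the minimum level.

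Among WAP domain genes Wfdc3 rose, and all 4 members had positive log2 fold changes. Of these, Wfdc3 reached the minimum level through siMnt alone and so had to differ. Wfdc3 was at 5.24, 4.43 and 15.5 in siNTC and 48.7, 60.9 and 39.2 in siMnt, siNTC 3 being the highest control (log2 fold change 2.60 ± 0.48, adjusted p = 0.0339, limma). Wfdc1 was at 23.6, 24.4 and 47.2 and at 80.0, 71.6 and 69.8, with no overlap (1.26 ± 0.32, adjusted p = 0.0672; 0.0264 with blocks). Wfdc2, known as HE4 and a secreted product of many epithelia, had the highest level per length of all members, 14420 normalised reads per kb. It was at 8994, 12004 and 11448 in siNTC and 13014, 15229 and 12764 in siMnt, with the groups close but apart (0.34 ± 0.15, adjusted p = 0.217). Slpi, the secretory leukocyte protease inhibitor, was at 403, 419 and 276 and at 303, 462 and 397 (0.08 ± 0.22, adjusted p = 0.864). Wfdc2, Wfdc3 and Slpi are on chromosome 2 with no other member between them.

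Neither Kunitz member passed by limma, edgeR or DESeq2, though both had an unadjusted p under 0.05 by limma. Spint2, an inhibitor of matriptase and of the activator of hepatocyte growth factor, was at 2692, 3028 and 3538 in siNTC and 3669, 4139 and 3858 in siMnt, without overlap (log2 fold change 0.34 ± 0.13, adjusted p = 0.17, limma). Tfpi, which blocks the tissue factor complex, was at 700, 823 and 541 and at 554, 473 and 488 (-0.43 ± 0.18, adjusted p = 0.196), with siNTC 3 inside the siMnt range. Without siNTC 3 they passed, in opposite directions (0.0498 and 0.0391).

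Of the 2 cystatins 0 passed by limma, edgeR or DESeq2, and 1 had an unadjusted p under 0.05 by limma. Cst3, the secreted cystatin C, was at 3245, 4365 and 3665 in siNTC and 4919, 4960 and 4681 in siMnt. Its groups did not overlap (log2 fold change 0.38 ± 0.13, adjusted p = 0.139, limma). Cstb, the cystatin that stays inside cells, was at 2960, 4376 and 2871 and at 3233, 3515 and 2844 (-0.07 ± 0.18, adjusted p = 0.866). Per length these genes took places 3 and 4 of 37, at 5473 for Cstb and 5007 for Cst3 normalised reads per kb.

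Across all families the groups did not overlap in 20 of 37 members, 15 higher and 5 lower in siMnt, where 31.5% of all tested genes did not overlap (15.6% higher, 15.9% lower). Of the 15, 6 (Serpina9, Serpinb1a, Serpinb6c, Serpinh1, Serping1 and Wfdc3) reached the minimum level through siMnt alone and so had to differ. No share is therefore read from this count. Levels spanned a wide range, with 12 members averaging 1000 or more and 17 under 100, and 4 of the 6 that passed were among these 17. Just inside the minimum level were Serpina9, Serpinb1a and Serpinb9f, with means of 14.2, 15.0 and 15.1, and just outside Serpina12, Spint1 and Serpinb9d, with 9.06, 9.31 and 9.33. The other rows below the minimum were Reck, Serpina3c, Serpina3f, Serpina3g, Serpina3n, Serpina5, Serpina6, Serpina11, Serpind1, Serpinf2, Spink2, Spink4, Wfdc5, Wfdc6b, Wfdc8 and Wfdc12. No Spink gene was therefore a member.

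The proteases and receptors on which these inhibitors act were taken from 6 lists with 94 genes. Of 54 tested, 5 rose, 4 fell and 45 did not pass. Mmp9 and Mmp2 reached the minimum level through siNTC alone and so had to differ, and among the 50 genes with both group means of at least 10, 7 passed (14%), against 3.62% of all tested genes of that kind. Those that fell were 3 metalloproteases of 17 tested and Gzme. Mmp9, a gelatinase, was at 195, 206 and 58.1 in siNTC and 9.73, 7.16 and 7.35 in siMnt (log2 fold change -3.89 ± 0.49, adjusted p = 0.0162, limma). Adam8, a membrane metalloprotease, was at 1530, 1335 and 1147 and at 710, 659 and 722 (-0.93 ± 0.14, adjusted p = 0.0217). Mmp13, a collagenase, rose from 227, 258 and 655 to 1354, 1672 and 1357 (3.84-fold in mean, adjusted p = 0.0288), and the third to fall was Mmp2 (-2.14, adjusted p = 0.0313). Mmp14, the abundant membrane type, was at 6349 to 8655 in siNTC and 7868 to 8860 in siMnt (adjusted p = 0.675).

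Of 12 tested trypsin-like epithelial proteases and genes of the hepatocyte growth factor axis 3 rose and 0 fell. Over all tested genes 2.56% rose and 1.37% fell. With blocks 5 passed higher, against 9.33% of all tested genes. The membrane protease Tmprss2 was at 6.99, 9.97 and 20.03 in siNTC and 61.6, 65.6 and 61.3 in siMnt (log2 fold change 2.38 ± 0.40, adjusted p = 0.0264, limma). The secreted protease Htra3 was at 45.4, 56.5 and 51.0 and at 136, 110 and 108 (1.19 ± 0.22, adjusted p = 0.0326). Hgfac, the activator of hepatocyte growth factor and a target of Spint2, was at 228, 276 and 320 and at 435, 494 and 600 (0.89 ± 0.19, adjusted p = 0.0448). All 3 had groups that do not overlap, as did 31.5% of all tested genes. St14, which encodes matriptase, was below the minimum level.

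Of 9 tested cysteine cathepsins and legumain 1 rose, Ctsf, at 376, 415 and 479 in siNTC and 761, 710 and 609 in siMnt (log2 fold change 0.71 ± 0.15, adjusted p = 0.048, limma). By edgeR 2 of the 9 were called, against 3.54% of all tested genes. With replicate numbers as blocks 3 of the 9 passed higher and 2 lower, against 9.33% and 6.56% of all tested genes. The lower pair were Ctsw and Ctsl, cysteine cathepsins whose groups did not overlap. Ctsw was at 1112, 1364 and 213 in siNTC and 121, 97.8 and 162 in siMnt (log2 fold change -2.46 ± 0.63, adjusted p = 0.0688, limma; 0.0178 with blocks; 0.0497 by edgeR). Ctsl was at 21485, 29026 and 11416 and at 10322, 10588 and 8216 (47% of the control mean, adjusted p = 0.107, limma; 0.0106 with blocks). In both siNTC 3 was the lowest control. Gzme, a granzyme and the 1 tested gene of its list, fell from 151, 113 and 73.0 to 16.2, 10.7 and 18.4 (-2.79 ± 0.35, adjusted p = 0.0162). Gzmb, the target of Serpinb9, was below the minimum level. Of the 12 leukocyte markers 4 were tested and 2 rose, Csf1r and Itgam, of which Itgam reached the minimum level through siMnt alone. The other tested markers, Cd68 and Cd14, had log2 fold changes of -0.19 and -0.15. The summed level of the listed markers, most of it from Csf1r and Cd14, was 2204 to 2812 in siNTC and 3392 to 3487 in siMnt. Csf1r had a mean of 945 in siNTC and 1975 in siMnt, while the means of Cd14 were 1394 and 1258 and those of Cd68 190.5 and 163.7. The general leukocyte marker Ptprc was below the minimum level, at 1.29 to 6.65 in siNTC and 2.45 to 3.58 in siMnt. The part of these markers in the results was not tested.

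In the plasminogen activation list 0 of 6 tested genes passed by limma and by edgeR, with 2 at an unadjusted p under 0.05. DESeq2 called 2 of the 6, where it called 11.6% of all tested genes. The urokinase receptor gene Plaur was at 4173, 5622 and 2637 in siNTC and 2412, 2489 and 2549 in siMnt (log2 fold change -0.67 ± 0.24, adjusted p = 0.152, limma; 0.0432 with blocks). In the opposite direction the endocytic receptor gene Lrp1 was at 7529, 3873 and 7476 and at 11700.2, 9563 and 10133, with no overlap (0.79 ± 0.25, adjusted p = 0.113; 0.0165 with blocks). Plat, tissue plasminogen activator, was at 7082, 7571 and 5945 and at 7008, 6924 and 6664 (adjusted p = 0.981). Plau was not analysed here. Of 9 tested coagulation genes, Tfpi among them, 0 passed by limma and by edgeR, with 4 at an unadjusted p under 0.05 and 1 called by DESeq2. Tissue factor, F3, the target of Tfpi, was at 3718, 7037 and 1943 and at 1751, 2433 and 1599 (-0.97 ± 0.41, adjusted p = 0.206; 0.017 with blocks). The thrombin receptor gene F2r and Proc, which encodes protein C, had log2 fold changes of 0.38 and 0.73 and passed higher with blocks (0.0437 and 0.0386), though their groups overlapped.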

How the data were processed

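RNA was sequenced in 6 NMuMG libraries, 3 per siRNA, and grouped by their titles. Per the submitters' processing notes, TopHat2 2.1.0, DESeq2, DESeq 3.5 and build mm9 were used; no source used here gives the counting tool, annotation, strand setting or filters. The authors deposited 1 table of signal values, which are read counts divided by 1 size factor per library: 99.75% of nonzero values came out as whole reads (tolerance 0.05 read), and the recovered reads were tested with edgeR 4.0.16, which called 445 genes, and DESeq2 1.42.0. Such scaling does not remove GC or length trends.

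Genes with a mean of at least 10 were tested as log2(value + 1) with limma 3.58.1 (trend, R 4.3.3), adjusted over all 12568 genes, which called 494. This understates changes of low genes. The design had allowed for counts or normalised values, and was kept. Figures and tables used Python 3.11.15 and pandas 2.3.3. Values in the text are normalised read counts and errors are standard errors unless named.

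Deviations from group means correlated at 0.28, 0.496 and 0.346 for libraries of the same number and at -0.383 to 0.0329 for other pairs. By this check of the data the titles' numbers may pair the libraries, but the labels do not say what they share. The main test does not use the pairing, and the fit with replicate numbers as blocks is an alternative to it. No libraries were copies: replicate pairs had a chi-square per gene of 15.1 or more on average.

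Members, lists and the naming rule were chosen with earlier results of these data known. The rule gives in full the members that passed, those that passed only with blocks and a log2 fold change of at least 1 in size, the 5 with the highest mean, and up to 3 passing genes of each list of proteases; other members' library values and F3, Plat, Plaur, Mmp2, Mmp14, Ctsw, Ctsl, Lrp1, F2r, Proc and the marker genes were named after their values were seen. Transcript lengths and windows are from GENCODE M21, a different build, and matched 98.8% of tested genes. The values of 1 member are not reported here; it is kept in the fits and in the counts.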

Additional observations from a re-analysis of the deposited data

How the results depend on the processing

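The count of members that passed, 5 higher and 1 lower, kept within 1.5 times under other pseudocounts, no level filter, both rescalings and edgeR. Higher members numbered 1 with a minimum mean of 50 (where 23 members remained), 9 with the replicate block, 9 at an adjusted p under 0.1 and 10 with the block and a GC and length correction. Lower members numbered 0 without the variance trend, 4 with the block, 5 by DESeq2, 3 at 0.1, 2 with the GC and length correction and 5 with it and the block. Leaving out a library gave 0 to 14 higher and 0 to 11 lower by limma, and 0 to 13 and 0 to 12 by edgeR, a setting chosen after seeing the data. Of the protease lists 9 genes passed, against 5 (minimum of 50), 21 (block), 17 (DESeq2) and 21 (block and correction), and 0 to 22 by limma or 0 to 21 by edgeR without a library. Over all genes 494 passed, against 322, 306 (no trend), 1998 (block), 1457 (DESeq2), 1336 (0.1), 960 (correction) and 2329 (block and correction), with 0 to 2012 by limma and 0 to 2007 by edgeR without a library (215 without siNTC 2, 114 without siMnt 3). For Mnt the log2 fold change was -0.96 in the main fit and with the block (adjusted p = 0.0546 and 0.00442, the former passing at 0.1), -0.98 by DESeq2 (0.0014) and -1.05 with the correction (0.0148; 0.0105 with the block), and -1.19 to -0.77 without a library. The causes were not tested.

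Signs turned in 5 members, none of which had passed. Without siNTC 3 Serpinb1c was at -0.47 and Slpi at -0.11, and without siMnt 2 at -0.17 and -0.05. Without siNTC 2 Serpinb6b was at 0.00, Serpinb9g at 0.17 and Cstb at 0.13, and Cstb was at 0.01 without siMnt 3 and at 0.01 with the GC and length correction, with or without the block. Over left-out libraries Serpinb1c ran from -0.47 to 0.43, Serpinb6b from -0.34 to 0.00, Serpinb9g from -1.59 to 0.17, Slpi from -0.11 to 0.25 and Cstb from -0.18 to 0.13. Of the other comparisons of a member with an alternative 603 kept direction and call, 48 came to pass and 28 ceased to. Depth limits the scarce members: 17 had a mean under 100, and Serpinb6c had 5 control reads in all.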
